A study of Mus musculus with 7 samples.

Results

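The D-type cyclins, their kinases and the CDK inhibitors are the set of controllers that decide whether a cell leaves G1, and 10 of their genes were followed here in mouse mammary tumours. They are the cyclins Ccnd1, Ccnd2 and Ccnd3, the kinases Cdk4 and Cdk6, the CIP/KIP inhibitors Cdkn1a, Cdkn1b and Cdkn1c, and the INK4 inhibitors Cdkn2a and Cdkn2c. Every probe set whose only platform gene symbol was one of these was taken, which gave 22 of the 22690 probe sets and 10 of the 12393 genes with such a symbol. The number of probe sets per gene was 7 for Ccnd2, 3 each for Ccnd1 and Cdk4, 2 each for Cdkn1a and Cdkn1b, and 1 for each of the others. The genes were chosen for their role and not for their values, though earlier results of these data were known.

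The samples were transplant tumours of the line Met1 (3 arrays) and of the line DB7 (4 arrays), both derived from mammary tumours of mice carrying a polyoma middle T transgene. The labels give no genotype, host strain, age or treatment other than the anaesthesia before collection, and each line stands for 1 tumour lineage. DB7 is known as a line from animals whose middle T lacks working docking sites for phosphatidylinositol 3-kinase, and Met1 as a line with the unaltered oncogene, so the oncogene and the line cannot be told apart. The series' design text speaks of first-generation crosses instead of transplants, and the sample labels were followed.

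In G1, D cyclins bind Cdk4 or Cdk6, and the complexes phosphorylate the retinoblastoma protein and its relatives, which releases E2F factors to switch on the genes of DNA replication. INK4 proteins bind the kinases directly and keep the cyclins off, while CIP/KIP proteins bind cyclin and kinase together and act most strongly on Cdk2. In the mammary gland Ccnd1 is required for alveolar growth in pregnancy, and in mice it is required for tumours driven by Ras or Neu. Cdkn2a encodes 2 proteins from separate first exons: p16Ink4a, which inhibits Cdk4 and Cdk6, and p19Arf, which stabilises p53.

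Among these genes the kinase Cdk4 was lower in Met1 at each of its probe sets. The inhibitor Cdkn2a was higher in Met1 by 1.80 on the log2 scale, but was too dim for the test and carries no call. It lay below the array median in every DB7 array and in Met1 2. Single probe sets of Ccnd1 and Cdkn1a passed the threshold narrowly, lower and higher in Met1. Ccnd3 and the only tested probe set of Ccnd2 did not pass. Cdk6, Cdkn1b, Cdkn1c and the other probe sets of Ccnd2 were too dim to be tested. Cdkn2c differed more between the Met1 arrays than between the lines.

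Values are log2 probe set summaries, and differences are Met1 minus DB7 with their standard errors (SE) and p-values adjusted over all 11704 tested probe sets by limma, with 0.05 as the threshold. Testing was limited to probe sets brighter than the array median on 3 or more of the 7 arrays. Of the 22 member probe sets 11 passed this filter, from 6 of the 10 genes, and each of them lay above the median on all 7 arrays. The filter left out Cdk6, Cdkn1b, Cdkn1c, Cdkn2a and 6 probe sets of Ccnd2, and for these the difference comes from the fit without a filter and carries no call. Of the 11 tested probe sets 1 was higher and 4 were lower in Met1, while over all tested probe sets 31% were called, 13.4% higher and 17.6% lower. The excess of lower calls depended on the scaling. As deposited 1566 were higher and 2060 lower, and with quantile normalization 1745 were higher and 1981 lower. With each array centred on its median, 1775 were higher and 1690 lower. The members' median difference was 0.00, and that of all tested genes was -0.04. Levels of different probe sets cannot be ranked against each other on this array, so each gene is compared only between arrays.

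**Figure D1:**
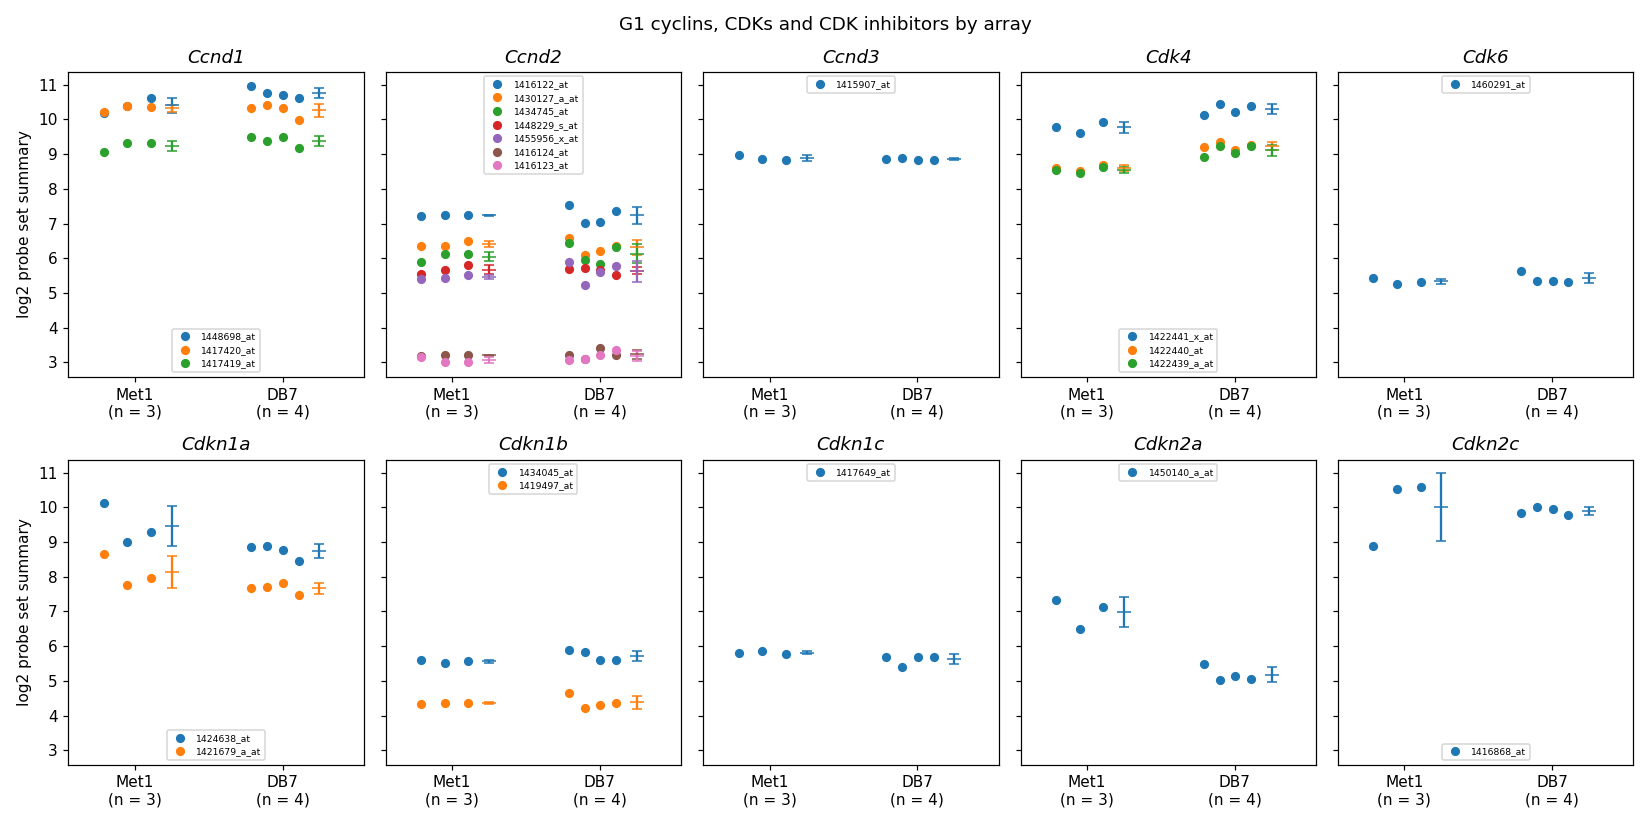
Log2 probe set summaries of the 10 genes, 1 panel per gene and 1 colour per probe set, with Met1 (n = 3) left of DB7 (n = 4). Points are arrays in the order of their numbers, and the mark to their right is the mean with its SD. The 3 Cdk4 probe sets and Cdkn2a separate the lines, and Cdkn2c has a single low Met1 array at 8.87.

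**Figure D2:**
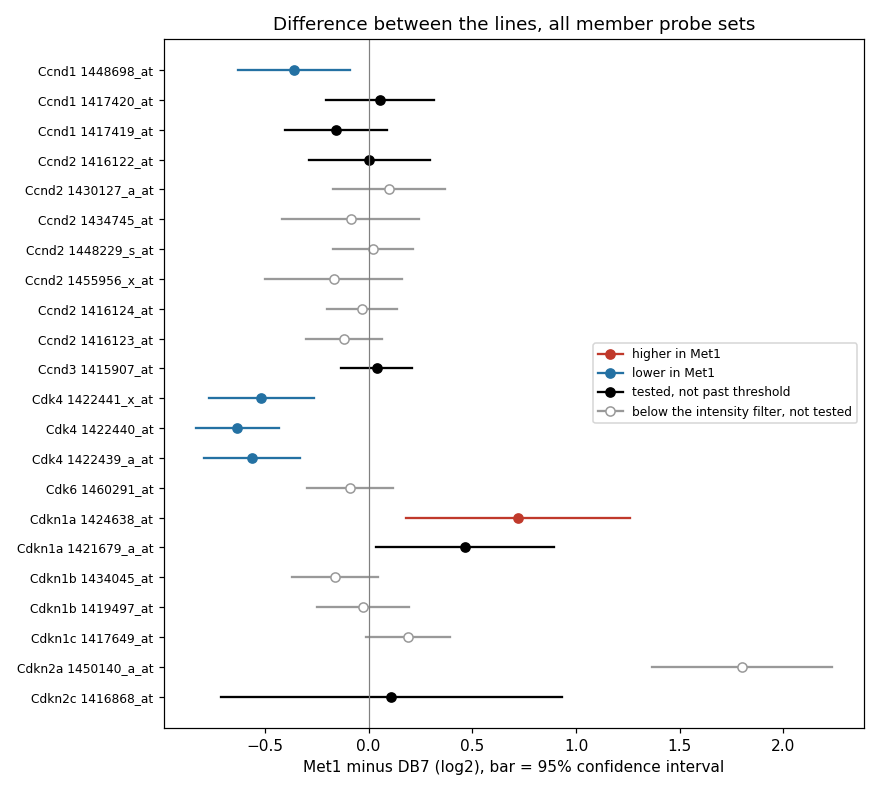
Met1 minus DB7 on the log2 scale (horizontal axis) for the 22 probe sets, with 95% confidence intervals from limma. Filled points were tested and open grey points lay below the intensity filter. Cdk4 lies left of 0 at all 3 probe sets, and Cdkn2a lies farthest from 0 at 1.80.

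Cdk4, the kinase partner of the D cyclins, has 3 probe sets. Its promoter is shown because the gene changed at each of them and because its window is unusual among promoters in the number of E-boxes, the sites bound by Myc and related factors. The sequence is the 250 bases before the RefSeq start in build GRCm38.p6, chr10:127063285-127063534, plus strand, and capitals mark each CACGTG.
Cdk4 upstream window: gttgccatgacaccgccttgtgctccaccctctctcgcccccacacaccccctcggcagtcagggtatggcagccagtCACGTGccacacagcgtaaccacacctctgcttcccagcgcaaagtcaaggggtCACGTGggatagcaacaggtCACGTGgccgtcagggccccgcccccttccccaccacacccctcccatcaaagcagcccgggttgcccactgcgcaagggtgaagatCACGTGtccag
The motif was searched on both strands, where it reads alike, and no match overlapped another motif searched. It occurs 4 times, with first bases 172, 118, 98 and 11 bases before the start. Of all 32851 promoter windows of this length in the table, 6.02% hold at least 1 CACGTG and 0.0213% hold 4 or more.

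Probe set 1422440_at of Cdk4 measured 8.59, 8.53 and 8.68 in Met1, against 9.20, 9.36, 9.11 and 9.26 in DB7. Every Met1 array lay below every DB7 array. The means were 8.60 ± 0.08 in Met1 and 9.24 ± 0.11 in DB7 (SD, n = 3 and 4), a difference of -0.63 (SE 0.09; limma, adjusted p = 0.000894). DB7 was thus 1.55-fold higher by this probe set.

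Probe set 1422439_a_at of Cdk4 measured 8.55, 8.45 and 8.63 in Met1, against 8.93, 9.23, 9.04 and 9.23 in DB7, a difference of -0.56 (SE 0.10; limma, adjusted p = 0.00337). Probe set 1422441_x_at measured 9.78, 9.62 and 9.94 in Met1, against 10.12, 10.45, 10.23 and 10.40 in DB7, a difference of -0.52 (SE 0.11; limma, adjusted p = 0.0080). The groups did not overlap at either. The suffix of the last marks probes that may bind other transcripts, and its difference is the smallest of the 3. Values of the lines did not overlap at 39.4% of all tested probe sets, and at 4 of the 11 tested member probe sets. The 3 Cdk4 probe sets share a gene and are not separate replicates. Dropping any 1 of the 7 arrays kept all 3 calls, and the highest adjusted p among these fits was 0.0418, at 1422441_x_at.

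The genes whose profile over the 7 arrays lay nearest to that of Cdk4 (1422441_x_at), by the root mean square difference after centring each profile, were B3gntl1 (0.06), Pole2 (0.07) and Dlat (0.07). Pole2 is a subunit of a replicative DNA polymerase and Dlat a subunit of the pyruvate dehydrogenase complex. Of the 3 nearest measured genes on each side of Cdk4 on chromosome 10, Mettl1, Tspan31 and Os9 were tested. Tspan31, a tetraspanin next to Cdk4, differed by -0.07 (SE 0.08; limma, adjusted p = 0.53). Os9, an endoplasmic reticulum lectin, rose by 0.35 (SE 0.08; limma, adjusted p = 0.012). Without Met1 1 it did not pass (adjusted p = 0.0516). Mettl1, a tRNA methyltransferase, differed by -0.34 and did not pass (SE 0.13; adjusted p = 0.0798).

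Cdk6, the other kinase of the D cyclins, was dim. Its probe set measured 5.42, 5.27 and 5.31 in Met1, against 5.64, 5.36, 5.36 and 5.33 in DB7, below the median of each array. The ranges overlapped, and the difference was -0.09 (95% confidence interval -0.30 to 0.12).

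Among the D cyclins, Ccnd1 was bright in both lines and its probe sets differed in their calls. Probe set 1448698_at measured 10.20, 10.40 and 10.61 in Met1, against 10.96, 10.77, 10.72 and 10.61 in DB7. The highest Met1 array and the lowest DB7 array were level, and the difference was -0.36 (SE 0.12; limma, adjusted p = 0.0475; 1.28-fold higher in DB7). The call was lost in 12 of 18 alternatives, among them the fits without Met1 1 (adjusted p = 0.176), Met1 2, DB7 1, DB7 2 or DB7 3. Probe set 1417419_at differed by -0.16 (SE 0.11; limma, adjusted p = 0.304), with 9.07, 9.31 and 9.31 in Met1 against 9.49, 9.38, 9.49 and 9.18 in DB7. Probe set 1417420_at differed by 0.06 (SE 0.12; limma, adjusted p = 0.755), with 10.22, 10.40 and 10.35 in Met1 against 10.33, 10.42, 10.33 and 9.98 in DB7.

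The within-array difference of 1448698_at minus 1417420_at, a pair picked after the values were seen and given without a test, was -0.02, 0.00 and 0.26 in Met1, against 0.63, 0.35, 0.39 and 0.62 in DB7. The 2 probe sets of Ccnd1 therefore did not move together between the lines. The genes nearest in profile to 1448698_at were Creg1 (root mean square difference 0.05), Kdm6a (0.08) and Mgat1 (0.09). Creg1 is a secreted glycoprotein first known as a repressor of E1A-driven transcription, Kdm6a is a histone demethylase, and Mgat1 is a glycosyltransferase. The 3 tested neighbours of Ccnd1 on chromosome 7 did not pass in limma: Fgf4, a fibroblast growth factor, differed by 0.03 (adjusted p = 0.811), LTO1 by -0.09 (adjusted p = 0.545) and Mrgprf by 0.10 (adjusted p = 0.483).

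Ccnd2, the D cyclin best known from lymphocytes and ovarian cells, passed the filter at 1 of 7 probe sets. Probe set 1416122_at measured 7.23, 7.25 and 7.24 in Met1, against 7.53, 7.01, 7.04 and 7.36 in DB7. The Met1 arrays were nearly equal and lay between the DB7 arrays, of which DB7 1 and DB7 4 were high and DB7 2 and DB7 3 low. The difference was 0.00 (SE 0.13; limma, adjusted p = 0.988). At probe set 1434745_at DB7 1 and DB7 4 were again the highest DB7 arrays, with 5.90, 6.12 and 6.12 in Met1 against 6.43, 5.94, 5.85 and 6.33 in DB7. The same held at 1430127_a_at and 1455956_x_at, but not at 1448229_s_at, 1416124_at and 1416123_at. The 6 dim probe sets differed by -0.17 to 0.10.

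DB7 1 and DB7 4 were also the DB7 arrays with the most signal from other cell types. Over 8 fibroblast markers, all measured and 5 of them above the median on every array, the mean was 8.48 to 9.15 in Met1, 9.21 and 8.72 in DB7 1 and DB7 4, and 8.12 and 7.74 in DB7 2 and DB7 3. Over 5 measured B cell markers, 1 of them above the median on every array, it was 6.09 to 6.34 in Met1, 7.65 and 8.06 in DB7 1 and DB7 4, and 6.27 and 6.49 in DB7 2 and DB7 3. The part of these cells in the Ccnd2 values was not tested. Without DB7 1 and DB7 4 the Ccnd2 difference at 1416122_at was 0.21 (SE 0.08; limma, adjusted p = 0.0799). Those arrays hold the highest DB7 values of this probe set, so leaving them out was bound to raise the difference. The fit therefore cannot bear on the part of other cells. In whole tumours, fewer cells of a type and less RNA per cell cannot be told apart.

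Ccnd3, the remaining D cyclin, was the steadiest member. It measured 8.99, 8.87 and 8.83 in Met1, against 8.85, 8.89, 8.84 and 8.84 in DB7. The groups overlapped, and the difference was 0.04 (95% confidence interval -0.14 to 0.21; limma, adjusted p = 0.744).

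Cdkn1a, the inhibitor p21 and a classic p53 target, was higher in Met1 at 1 of its 2 probe sets. Probe set 1424638_at measured 10.11, 8.99 and 9.29 in Met1, against 8.86, 8.89, 8.78 and 8.45 in DB7. All Met1 arrays lay above all DB7 arrays, but Met1 2 by only a little, and Met1 1 stood well above the rest. The difference was 0.72 (SE 0.24; limma, adjusted p = 0.0477; 1.65-fold higher in Met1). Without Met1 1 it was 0.40 (SE 0.15; adjusted p = 0.107). Among the fits with 1 array dropped, the call held only without Met1 2.

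Probe set 1421679_a_at of Cdkn1a measured 8.64, 7.76 and 7.97 in Met1, against 7.67, 7.69, 7.82 and 7.46 in DB7. Met1 1 was again the highest, while Met1 2 lay within the DB7 range. The difference of 0.47 (SE 0.19) did not pass (limma, adjusted p = 0.0961), and without Met1 1 it was 0.21 (adjusted p = 0.259). Mdm2, the p53 target that degrades p53, differed by -0.02 (SE 0.09; limma, adjusted p = 0.865), and its other tested probe set by -0.19. The part of p53 in the Cdkn1a values was not tested.

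The genes nearest in profile to Cdkn1a (1424638_at) were Ntn1, Tmem82 and Hlf, at root mean square differences of 0.20, 0.20 and 0.22. In each Met1 1 was the highest of the 7 arrays, a trait for which the search by likeness selects. Ntn1 encodes the guidance factor netrin and Hlf a transcription factor of the PAR family. All 6 measured neighbours of Cdkn1a on chromosome 17 were tested. Mtch1, a mitochondrial carrier homologue, fell by 0.55 (SE 0.11; limma, adjusted p = 0.0060), and the other 5, among them the splicing factor gene Srsf3 (-0.27, SE 0.22), did not pass. Without DB7 1 Srsf3 passed, at -0.49.

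Cdkn1b, the inhibitor p27, was dim at both probe sets. Probe set 1434045_at measured 5.59, 5.51 and 5.58 in Met1, against 5.88, 5.82, 5.59 and 5.59 in DB7. Probe set 1419497_at measured 4.32, 4.37 and 4.37 in Met1, against 4.64, 4.22, 4.29 and 4.37 in DB7. The groups overlapped at both, and the differences were -0.16 (95% confidence interval -0.37 to 0.05) and -0.03 (-0.25 to 0.20).

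Cdkn1c, the imprinted inhibitor p57, measured 5.79, 5.86 and 5.78 in Met1, against 5.70, 5.41, 5.70 and 5.68 in DB7. The groups did not overlap but lay close, below the median of every array. The difference was 0.19 (95% confidence interval -0.02 to 0.39), and without the filter the adjusted p was 0.199 in limma.

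Cdkn2a measured 7.33, 6.49 and 7.12 in Met1, against 5.48, 5.03, 5.15 and 5.06 in DB7. The lowest Met1 array lay 1 unit above the highest DB7 array. Met1 1 and Met1 3 lay above their array's median, and Met1 2 and all DB7 arrays below it, which is why the gene was not tested. The means were 6.98 ± 0.44 in Met1 and 5.18 ± 0.21 in DB7 (SD, n = 3 and 4), a difference of 1.80 (SE 0.19), or 3.48-fold higher in Met1. The fold is approximate because the DB7 level is low.

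In the fit without the filter, where 17.8% of 22626 probe sets were called, limma gave Cdkn2a an adjusted p of 0.000302. It stayed under the threshold in 12 further fits without the filter, chosen after the data had been seen, with differences of 1.63 to 2.05 and adjusted p of 0.000166 to 0.00335. The exact permutation test of this single value gave p = 0.0286 (two-sided, n = 3 and 4), the smallest that 35 divisions of the arrays allow.

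The probe set for Cdkn2a has the suffix given to probes that transcripts of 1 gene share, and the files do not say which first exon a transcript used, so p16Ink4a and p19Arf cannot be told apart. The upstream windows of both RefSeq starts are shown because the measured signal may come from either. They lie on the minus strand of chromosome 4 in build GRCm38.p6, the first at chr4:89294620-89294869 before the distal start, which in mouse belongs to Arf, and the second at chr4:89282193-89282442 before the start nearer the shared exons. Capitals mark GGGCGG, the GC box bound by Sp factors, and GCGGGAA, an E2F-type site, each on either strand.
Cdkn2a distal window: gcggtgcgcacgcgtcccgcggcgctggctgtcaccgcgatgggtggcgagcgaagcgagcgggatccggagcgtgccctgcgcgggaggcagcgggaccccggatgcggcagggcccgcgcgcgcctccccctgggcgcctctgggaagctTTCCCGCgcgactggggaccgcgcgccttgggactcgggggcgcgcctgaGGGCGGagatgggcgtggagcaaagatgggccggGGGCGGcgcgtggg
Cdkn2a proximal window: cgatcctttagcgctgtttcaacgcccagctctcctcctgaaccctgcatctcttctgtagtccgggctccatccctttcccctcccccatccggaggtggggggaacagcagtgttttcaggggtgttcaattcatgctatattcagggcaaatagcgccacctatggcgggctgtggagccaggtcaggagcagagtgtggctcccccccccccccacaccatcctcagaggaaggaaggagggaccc
The distal window holds 2 GC boxes and 1 E2F-type site, which do not overlap, at a GC content of 78.4% with 40 CpG pairs. The proximal window holds neither motif, at a GC content of 60% with 7 CpG pairs. Of all promoter windows, 32.7% hold a GC box and 3.82% the E2F-type letters.

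Cdkn2b, the INK4 gene beside Cdkn2a that encodes p15, was the gene nearest in profile to Cdkn2a among all tested genes outside the 10. Cdkn2a lies outside the rule for such a search because it was not tested, and it was added after its values were seen. The root mean square difference of the centred profiles was 0.07, against 0.14 for Pde4b, a phosphodiesterase of cyclic AMP, and 0.22 for Fcgbp, a mucus protein. Cdkn2b measured 7.86, 7.12 and 7.58 in Met1, against 5.96, 5.64, 5.76 and 5.66 in DB7. As in Cdkn2a, Met1 1 was the highest and Met1 2 the lowest Met1 array, and DB7 1 the highest DB7 array. Cdkn2b rose by 1.77 (SE 0.17; limma, adjusted p = 9.98e-05), about 3.41-fold higher in Met1. It lay above the median on 3 Met1 and 0 DB7 arrays, so it was tested only through the line in which it is high, and its fold is approximate too. Without the filter limma gave it an adjusted p of 0.000131.

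Mtap, a methylthioadenosine phosphorylase and the nearest measured gene on the other side of Cdkn2a, went the other way. It measured 8.18, 7.95 and 8.01 in Met1, against 8.73, 8.78, 9.14 and 9.44 in DB7, and fell by 0.98 (SE 0.17; limma, adjusted p = 0.00274; 1.97-fold higher in DB7). The groups did not overlap. The other 4 of the 6 neighbours, Ifna4, Ifna1, Zfp352 and Elavl2, were below the filter and differed by -0.24 to -0.04.

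**Figure D3:**
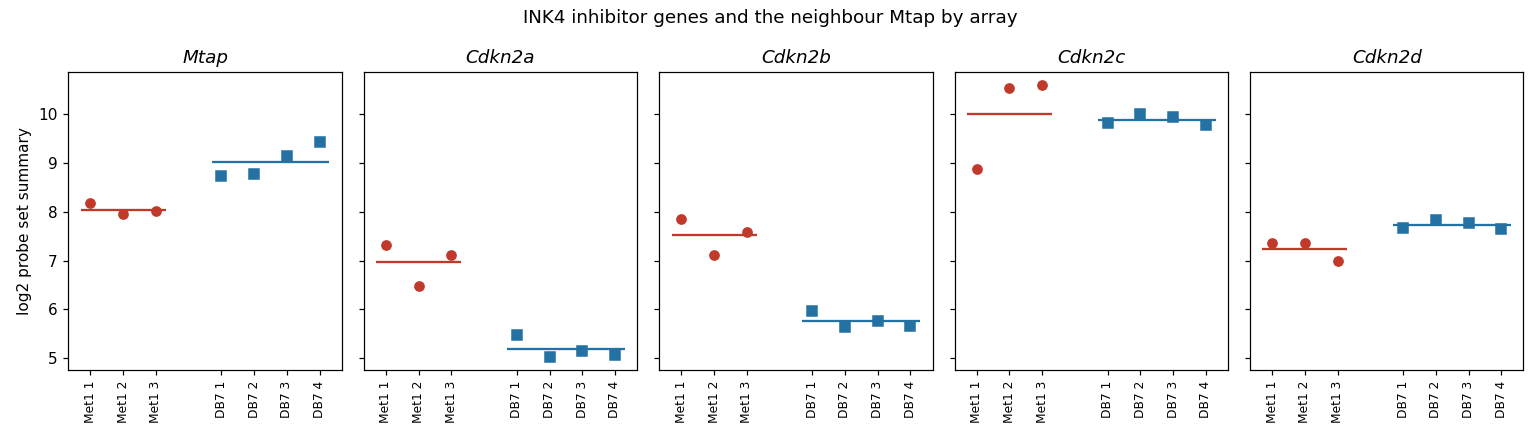
Log2 probe set summaries (vertical axis) of the 4 INK4 inhibitor genes and of Mtap, the neighbour of Cdkn2a, in each of the 7 arrays, Met1 as circles and DB7 as squares, with lines at the group means. Cdkn2a and Cdkn2b follow the same pattern over the arrays, Mtap and Cdkn2d are lower in Met1, and Cdkn2c is split within Met1.

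Cdkn2c, which encodes p18Ink4c and restrains luminal progenitors in the mouse mammary gland, measured 8.87, 10.53 and 10.59 in Met1, against 9.83, 10, 9.95 and 9.77 in DB7. Met1 2 and Met1 3 lay above every DB7 array and Met1 1 below every one. The difference was 0.11 (95% confidence interval -0.71 to 0.93; limma, adjusted p = 0.845). The Met1 SD of 0.98 compares with 0.11 in DB7. Without Met1 1 the difference was 0.67 (SE 0.10; limma, adjusted p = 0.00387). That value rests on 2 Met1 arrays.

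Cdkn2c was 1 of only 17 probe sets, of 11704 tested, at which Met1 1 lay at least 1 unit below both other Met1 arrays. In the opposite direction there were 2. Others of the 17 were Adipoq (5.29, 8.29 and 6.98 in Met1), Fabp4, Car3, Lpl and Cd36, genes known from adipocytes, and the milk protein gene Wap (10.14, 11.43 and 11.67 in Met1). The rest were Car6 (10.47, 11.85 and 12.08 in Met1), Krt79 (6.62, 7.83 and 7.83 in Met1), Bpifa2, Scgb1b27, Hp, Ccl8 and probe sets without a single symbol. The genes were grouped in this way after the list was seen. Over 3 measured adipocyte markers the mean was 5.75 in Met1 1, against 7.46 in Met1 2 and 6.79 in Met1 3. It was 7.58, 6.25, 5.61 and 6.55 in DB7, and the DB7 array with the lowest adipocyte mean, DB7 3, had 9.95 for Cdkn2c. The part of fat cells in the Cdkn2c values was not tested. The genes nearest in profile, outside the naming rule, were Zbtb18, Plekhb1 and Svep1 at root mean square differences of 0.34 to 0.41.

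Cdkn2d, the remaining INK4 gene, which encodes p19Ink4d, fell by 0.49 in Met1 (SE 0.11; limma, adjusted p = 0.00903). It measured 7.37, 7.37 and 6.99 in Met1, against 7.67, 7.83, 7.78 and 7.64 in DB7, without overlap. Cdkn2b passed the filter on its 3 Met1 arrays and Cdkn2a missed it by 1 array, so only Cdkn2b carries a call. Cdkn2d was called lower in Met1, and Cdkn2c was not called.

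The genes around these controllers were described by 8 lists. Of 113 listed genes 104 had a probe set here and 82 were tested, each by its brightest tested probe set. Of these 82, 10 were higher and 42 lower in Met1, while of all 7482 tested genes 30.9% were called, 13% higher and 17.9% lower. Lists were not tested as sets. Of the 82, 6 lay above the median only in the line in which they were higher, and all 6 were called. They were Cdkn2b, higher in Met1, and E2f8, Rbl1, Pola1, Cdc45 and Aurkb, lower in Met1. Cdk2, Cdc25a and Dtl, also called lower, lay above the median on 4 DB7 arrays but only 1 Met1 array. The list counts include all these genes and lean that far on the filter.

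Downstream of the D cyclins, genes of the CDK2 step were mostly lower in Met1. Of 7 tested genes for cyclins E and A and their kinases, 4 fell, 1 rose and 2 did not pass, with a median of -0.44. Ccna2, cyclin A2 of S phase, measured 8.60, 8.71 and 8.64 in Met1, against 9.96, 10.26, 10.10 and 9.96 in DB7, and fell by 1.42 (SE 0.10; limma, adjusted p = 2.11e-05). Cdk2, the kinase of cyclins E and A, fell by 0.66, and Cdc25a, the phosphatase that activates it, fell by 0.49 (limma, adjusted p = 0.000941 and 0.00434). Ccnh, the cyclin of the CDK-activating kinase, fell by 0.44 (limma, adjusted p = 0.0263), and Mnat1, its assembly factor, rose by 0.41 (adjusted p = 0.0293). The call of Ccnh was lost without DB7 4 or any single Met1 array, and that of Mnat1 without any single array but DB7 2. Ccne1, cyclin E1, differed by 0.00 (SE 0.10; limma, adjusted p = 0.987).

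Of 8 tested pocket protein, E2F and DP genes, 5 fell, 0 rose and 3 did not pass, with a median of -0.45. At an unadjusted p under 0.05 in limma, 1 was higher, E2f6 (0.31, unadjusted p = 0.0268), which was also called without DB7 4. E2f8, a repressive E2F, fell by 0.81 (SE 0.09; limma, adjusted p = 0.000314) and E2f1, an activating E2F, fell by 0.56 (SE 0.07; adjusted p = 0.000574). E2f8 and Rbl1 lay below the median on every Met1 array and were tested only through DB7. Without the filter their adjusted p was 0.000285 and 0.00292 in limma. E2f1 measured 6.73, 6.75 and 6.88 in Met1, against 7.29, 7.33, 7.36 and 7.4 in DB7. Rbl1, the pocket protein p107, fell by 0.79 and Tfdp1, the DP partner of E2Fs, fell by 0.56 (limma, adjusted p = 0.00208 and 0.00777). Rb1 and Rbl2 did not pass the filter.

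Of 16 tested E2F targets of S phase entry, 15 fell and 1 rose, with a median of -0.84. Rrm1, the large subunit of ribonucleotide reductase, measured 8.27, 8.48 and 8.33 in Met1, against 9.80, 10.18, 9.80 and 9.99 in DB7, and fell by 1.58 (SE 0.11; limma, adjusted p = 2.57e-05). Mcm6 and Mcm5, subunits of the replicative helicase, differed by -1.40 and -1.23, and Prim1, the primase, by -1.19 (all called; limma, adjusted p = 8.34e-05, 0.000266 and 0.000158). Tk1, thymidine kinase, rose by 0.40 (SE 0.12; limma, adjusted p = 0.0274). It did not pass once any single Met1 array was dropped.

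All 9 tested mitotic markers of the list fell, with a median of -0.87, led by Birc5 (-2.0), Top2a (-1.45), Mki67 (-1.35) and Cdk1 (-1.18; limma, adjusted p = 0.000106). Cdk1, the mitotic kinase, measured 8.70, 8.70 and 8.73 in Met1, against 9.65, 9.99, 10.10 and 9.82 in DB7. That proliferation genes were lower in Met1 was known from these arrays before the lists were drawn up, so their counts are no separate evidence. The Cdk4 difference of -0.63 to -0.52 was smaller than the medians of the S phase and mitotic lists, on the same log2 scale.

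**Figure D4:**
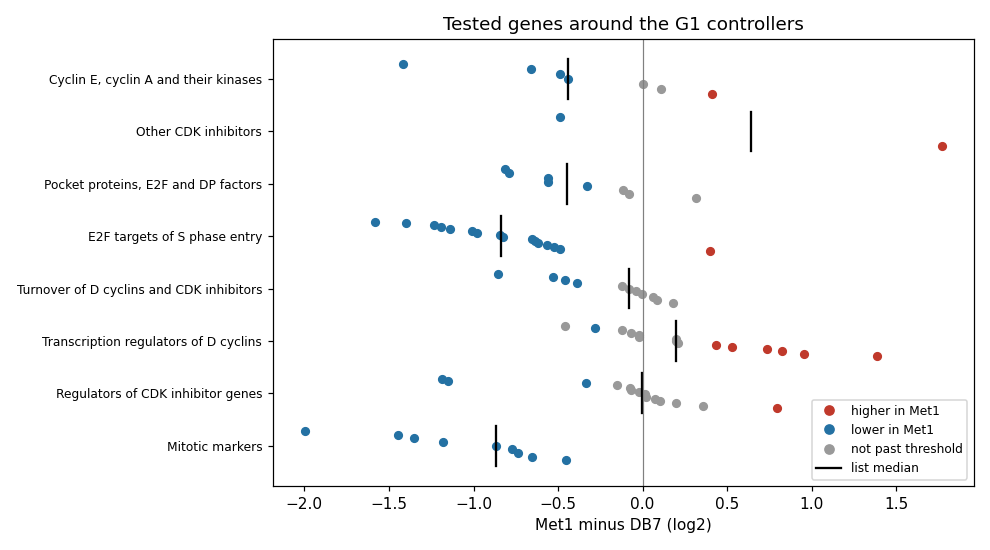
Met1 minus DB7 on the log2 scale (horizontal axis) for the 82 tested genes around the G1 controllers, 1 row per list. Points are genes, coloured by whether they passed limma's threshold, and black bars are list medians. The S phase and mitotic lists lie mostly left of 0, while regulators of D cyclins spread to both sides.

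Of 11 tested genes for the turnover of D cyclins and inhibitors, 4 fell, 0 rose and 7 did not pass, with a median of -0.08. Dtl, the receptor of the ligase that degrades p21 in S phase, fell by 0.86, and Cul1, the scaffold of SCF ligases, fell by 0.53 (limma, adjusted p = 0.0010 and 0.00394). Skp2, the F-box protein that recognises p27, fell by 0.39, and its cofactor Cks1b fell by 0.46 (limma, adjusted p = 0.0236 and 0.0266). The call of Skp2 was lost without DB7 3 or Met1 2, and that of Cks1b without any single array but DB7 1. At an unadjusted p under 0.05 in limma, 0 genes of this list were higher.

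Of 15 tested transcription regulators of D cyclins, 6 rose, 1 fell and 8 did not pass, with a median of 0.20. Fos, an AP-1 factor, measured 9.97, 9.92 and 9.69 in Met1, against 8.84, 8.31, 8.33 and 8.42 in DB7, and rose by 1.39 (SE 0.14; limma, adjusted p = 0.000156). Cebpb, a factor of ductal growth in the gland, rose by 0.95, Stat5a, the prolactin effector, by 0.82 and Stat3 by 0.44 (limma, adjusted p = 0.000379, 0.00131 and 0.00613). The other tested probe sets of Stat3 differed by -0.07 and 0.26. Ets2 also rose, and Sp1 fell by 0.28 (limma, adjusted p = 0.0448), a call lost without any single array but DB7 1.

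Myc, a growth-promoting factor that binds E-boxes, was added to the named genes after its values were seen. It measured 7.67, 7.45 and 7.98 in Met1, against 6.48, 6.84, 7.27 and 7.27 in DB7. The groups did not overlap, and Myc rose by 0.73 (SE 0.21; limma, adjusted p = 0.0248). The call was lost without Met1 1, Met1 3 or DB7 2 (adjusted p up to 0.103).

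Of 14 tested regulators of CDK inhibitor genes, 1 rose, 3 fell and 10 did not pass, with a median of 0.00. Cbx2 and Ezh2, of the Polycomb complexes that repress the Cdkn2a and Cdkn2b locus, differed by -1.15 and -1.19 (both called lower; SE 0.10 and 0.16; limma, adjusted p = 7.17e-05 and 0.000714). Ezh2 measured 7.46, 7.56 and 7.51 in Met1, against 8.48, 8.83, 8.38 and 9.09 in DB7. Cbx2 measured 7.05, 6.96 and 7.09 in Met1, against 7.94, 8.30, 8.25 and 8.27 in DB7. The other tested probe set of Cbx2 differed by -0.44. Both sets of values printed here were without overlap, as at 39.4% of all tested probe sets, in the direction opposite to Cdkn2a and Cdkn2b. A link between these genes was not tested. Bmi1, the Polycomb member best known as a repressor of that locus, differed by 0.07 (SE 0.16; limma, adjusted p = 0.767). Id2, an inhibitor of helix-loop-helix factors, rose by 0.80, and Dmtf1, an activator of Arf, fell by 0.33 (limma, adjusted p = 0.00698 and 0.0477). Dmtf1 did not pass without DB7 2, DB7 3 or any single Met1 array.

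As a check of the tissue, 5 of 7 epithelial markers lay above the median on every array, with 1 of the 6 tested called higher in Met1 and 3 lower. The list means were 9.87 to 10.18 in Met1 and 9.54 to 9.67 in DB7, an order that rested on Cldn7, a tight junction gene. Without Cldn7, which lay below the median on every DB7 array, the means were 9.86 to 10.17 in Met1 and 10.21 to 10.32 in DB7. Means of endothelial markers were 6.65 to 6.93 in Met1 and 6.44 to 7.09 in DB7. Those of macrophage markers were 8.66 to 9.04 in Met1 and 8.17 to 9.06 in DB7, and those of T cell markers 5.88 to 6.09 in Met1 and 5.98 to 6.40 in DB7. Skeletal muscle markers were low in both, at 4.57 to 4.65 in Met1 and 4.61 to 4.66 in DB7. Correlations across probe sets, which share the array's probes, were 0.994 to 0.996 within Met1, 0.986 to 0.992 within DB7 and 0.967 to 0.972 between the lines.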

How the data were processed

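Total RNA of snap-frozen tumours was extracted with Trizol and labelled with biotin for 1-colour Affymetrix arrays, per the labels' protocols. Values were deposited on a log2 scale, judged from their range, with 1 summary per probe set; RMA and MAS5 are named in the submitters' processing notes without a role. Log base, background correction and detection calls used by the authors are not stated. Such summaries can misstate the size of differences at dim probe sets, and in which direction is not known here. Array medians were close, and the values were used as deposited. The number of arrays limits the precision.

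Genes were named from GEO's platform annotation. The 64 control probe sets were left out, and 20380 of 22626 others had 1 symbol, 691 several and 1555 none. The RefSeq table of GRCm38.p6 held the Entrez identifiers of 20351. Promoter sequences are RefSeq's, and 7 of the 10 genes had an entry. Groups and numbers come from the sample titles. The labels do not say whether the arrays of a line came from separate animals, so the spread that the p-values rest on may be technical.

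Met1 was compared with DB7 by limma 3.58.1 in R 4.3.3 (intensity trend, group as the only term, two-sided, Benjamini-Hochberg over all tested probe sets). The fit was tested on simulated data. The members, the 8 lists and the tests were chosen with earlier results of these data known. Named were every member probe set, up to 4 genes per list with the smallest p, the 3 nearest profiles and the neighbours of members past the threshold. Named outside this rule, after their values were seen, were Pola1, Cdc45, Aurkb, Cldn7, Mdm2, Ccne1, Mnat1, E2f6, Rb1, Rbl2, Tk1, Ets2, Sp1, Myc, Bmi1 and the profiles and neighbours of Cdkn2a and Cdkn2c. The genes low in Met1 1 were also named outside this rule. Alternatives covered normalization, filter, variance model, array weights, cross-hybridising probe sets, single arrays and the replicate block.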

Additional observations from a re-analysis of the deposited data

Results flagged for a closer look

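Of 30 sets of 4 DB7 values examined (the 22 member probe sets and 8 means of cell type markers), 2 held an array far from the other 3 by Dixon's test, which flags about 1 set in 20 by chance. Cdk6 was 5.64 in DB7 1, against 5.33 to 5.36 in the other DB7 arrays. Cdkn1c was 5.41 in DB7 2, against 5.68 to 5.70 in the others. Both probe sets lay below the median of every array.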

How the results depend on the processing

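The calls of Cdk4 held in every alternative fit run at each of its probe sets. The exact permutation test, counted among the alternatives here, gave p = 0.0286 at each. That p is not adjusted over probe sets and is the smallest that 35 divisions of the arrays allow. The Ccnd1 call (1448698_at) was lost in 12 of 18 alternatives, among them quantile normalization (adjusted p = 0.108), median centring (0.0869) and the fit without a filter (0.0677). The Cdkn1a call (1424638_at) was lost in 10 of 18, with adjusted p of 0.0552 with array weights, 0.0672 without a filter and 0.148 without DB7 1 and DB7 4. Thus 0 member probe sets were higher with array weights, with the replicate block and without DB7 1 and DB7 4, and 0 to 2 with single arrays left out. Cdkn1a (1421679_a_at) passed only without Met1 2 (0.65, adjusted p = 0.043), and was 0.21 without Met1 1 (adjusted p = 0.259), and Cdkn2c only without Met1 1. The stricter filter tested 5657 probe sets and called 2031, of them 879 higher and 1152 lower; 6 listed genes were higher and 24 lower, with fewer tested. With single arrays left out, 1289 to 2205 probe sets were lower, the fewest without Met1 3 and nearly as few without Met1 2 (1298); the cause was not tested. Same-numbered arrays did not deviate together (correlations of deviations -0.17, -0.05 and 0.02), so the numbers were not taken as pairs. With the replicate block 2803 probe sets were called, against 3626 without, and Ccnd1 and Cdkn1a lost their calls (adjusted p = 0.0836 and 0.0908). Depth is not defined for arrays, and values below the array median are the least certain, which applies to Cdkn2a in DB7 and to Cdk6, Cdkn1b and Cdkn1c.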
